A study of Mus musculus with 6 samples.

Results

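The genes of cholesterol and fatty acid synthesis, with the factors that control them, were followed through RNA sequencing of LSK cells, the bone marrow fraction sorted as negative for lineage markers and positive for Sca-1 and c-Kit, which holds blood stem cells and multipotent progenitors. The 29 members were chosen by symbol from a list of sterol and fatty acid enzymes and SREBP regulators, and all 29 were found, each once, among the 55573 genes of the deposited table. There were 18 members in the sterol arm, 5 in the fatty acid arm, and 6 others, namely 5 regulators and 1 sterol carrier. The list is not the whole pathway. The cells came from C57BL/6J mice aged 3 months, in 3 wild-type libraries (genotype label Etv6+/+) and 3 libraries of mice with a single R355X copy of Etv6, a transcriptional repressor of the ETS family (genotype label Etv6+/-; the allele is named in the series text and not in the sample labels, and the mice were taken to be the same). All libraries shared the same strain, age, sort and amplification of total RNA, and no treatment was recorded. Nothing in the labels says whether a library is 1 animal or a pool, and the p-values therefore describe the spread among these libraries only, which may be technical.

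Animal cells make cholesterol from acetyl-CoA. The mevalonate steps build isoprenoid units, the squalene steps join and fold them into lanosterol, and a last series of enzymes trims lanosterol to cholesterol. Fatty acids come from the same acetyl-CoA through its carboxylation, chain building by fatty acid synthase and desaturation. Both arms are under the SREBP transcription factors, which SCAP carries out of the endoplasmic reticulum when sterols are low and which the INSIG proteins hold back when sterols are high. SREBP-2 acts mainly on the sterol genes and SREBP-1c mainly on the fatty acid genes, and Insig1 is itself a target of SREBP. Dividing blood progenitors need both products for membranes.

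Depth ranged from 45.2 to 92.2 M expected counts per library, and mutant replicate 1 was the deepest. Mitochondrial and ribosomal RNA genes took 27.1% to 31.2% of the counts, the most in mutant replicate 1. Etv6 measured 454, 419 and 400 CPM (expected counts per M of library size, corrected for composition by TMM) in wild-type replicates 1, 2 and 3 and 305, 341 and 386 CPM in mutant replicates 1, 2 and 3, so the genotypes did not overlap. The log2 fold change was -0.30 (SE 0.086), with an adjusted p of 0.245 in edgeR. The sort markers were present, with Kit between 351 and 451 CPM and Ly6a, which encodes Sca-1, between 71.7 and 93.5 CPM. With Cd34 and Flt3 they form the LSK marker list, and all 4 had a negative log2 fold change (median -0.105), where 49.4% of all tested genes did. The genotypes overlapped in each, and 0 of 4 had an unadjusted p under 0.05 in edgeR. Genes of mature neutrophils, which a Lineage gate is meant to remove, were present too, as S100a9 measured 817 to 1366 CPM, and their summed level overlapped between the genotypes.

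Promoters of 5 members are shown for their control elements: Hmgcs1 because it holds the only full sterol response element found, Insig1, Lss and Hsd17b7 because they are among the members with the largest differences between the genotypes, and Fasn as the gene that gives the fatty acid arm its synthase. The bases lie upstream of the RefSeq start in build GRCm38.p6, read 5′ to 3′ on the gene's own strand, and bases inside a GENCODE exon were left off. Capitals mark CCAAT, the box bound by NF-Y, on either strand (ATTGG when read from the other strand), and, in Hmgcs1 alone, the sterol response element. Their positions are chr13:119690101-119690350 on the plus strand for Hmgcs1, chr5:28071162-28071362 on the plus strand for Insig1, chr10:76531355-76531587 on the plus strand for Lss, chr1:169969242-169969408 on the minus strand for Hsd17b7 and chr11:120824548-120824797 on the minus strand for Fasn.
Hmgcs1: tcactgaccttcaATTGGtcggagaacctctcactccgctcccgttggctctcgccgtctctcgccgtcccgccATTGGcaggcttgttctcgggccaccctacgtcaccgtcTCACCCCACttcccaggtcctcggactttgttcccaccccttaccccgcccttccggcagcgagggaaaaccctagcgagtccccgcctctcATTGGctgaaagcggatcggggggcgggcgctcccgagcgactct
Insig1: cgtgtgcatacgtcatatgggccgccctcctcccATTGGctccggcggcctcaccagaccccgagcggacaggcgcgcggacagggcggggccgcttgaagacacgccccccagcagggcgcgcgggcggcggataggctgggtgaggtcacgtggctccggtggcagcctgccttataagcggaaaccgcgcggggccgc
Lss: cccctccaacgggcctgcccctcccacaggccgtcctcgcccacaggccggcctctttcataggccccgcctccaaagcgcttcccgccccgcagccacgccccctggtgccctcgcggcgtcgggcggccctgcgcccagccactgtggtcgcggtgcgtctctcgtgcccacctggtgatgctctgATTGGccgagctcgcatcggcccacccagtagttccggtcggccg
Hsd17b7: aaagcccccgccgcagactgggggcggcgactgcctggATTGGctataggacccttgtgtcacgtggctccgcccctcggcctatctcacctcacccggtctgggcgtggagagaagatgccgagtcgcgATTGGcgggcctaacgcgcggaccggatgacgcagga
Fasn: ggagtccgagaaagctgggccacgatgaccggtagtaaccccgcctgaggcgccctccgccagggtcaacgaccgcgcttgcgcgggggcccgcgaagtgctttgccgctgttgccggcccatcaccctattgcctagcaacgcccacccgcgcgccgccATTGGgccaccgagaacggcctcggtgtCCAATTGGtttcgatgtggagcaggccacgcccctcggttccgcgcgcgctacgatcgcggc

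Of the 29 members, 23 had a RefSeq promoter, and CCAAT on either strand was looked for in the 250 bases upstream of each start. It was found in 14 of the 15 sterol genes, every one but Acat2, in 1 of 3 fatty acid genes and in 4 of 5 others. The 3 fatty acid genes are Acly, Acaca and Fasn, too few to contrast the arms. For Acaca the only window, chr11:84195188-84195437, lies far inside the gene, which is annotated from 84129672 on the plus strand. That window may therefore not hold the start that these cells use. Among 11688 tested genes with a promoter 40.0% held it, as did 33.8% of all 32851 windows. In Fasn a forward and a reverse CCAAT overlap. The sterol response element, searched as TCACNCCAC on both strands, was in Hmgcs1 alone of the 23, against 1.2% of the tested genes, and the palindromic E-box TCACGTGA was in 0 of 23, against 1.7%. These are letter matches in a short window, and a gene without a match may hold another form of the element or hold it elsewhere. The sterol genes with CCAAT include Lss and Hsd17b7, with lower values in every mutant library, and also Pmvk and Ebp, whose mean was higher in the mutant.

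Most members were slightly less abundant in mutant LSK cells, and no single member passed the test across all genes in edgeR. Mutant means were lower for 23 of the 29, where 49.4% of all tested genes had a negative log2 fold change. All 29 passed the filter on low counts. With p-values of the edgeR quasi-likelihood fit adjusted over 20646 genes, 0 of 29 members passed, against 0.266% of all tested genes (0.0775% lower and 0.189% higher in the mutant). An unadjusted p under 0.05 was found for 12 of 29 members, all lower in the mutant, where 4.80% of all genes had such a p as lower, and for 0 members as higher, where 5.83% of all genes had one. By DESeq2, 3 members passed, all lower (Insig1, Sqle and Lss), against 1.59% of all genes, and limma-voom called 0, against 0.199%. With no filter on low counts edgeR called the same 3, against 1.58% of all genes. All mutant libraries lay below all wild-type libraries in 12 of 29 members, against 7.84% of all genes, and above them in 1 of 29, Pmvk, against 8.45%. In simulated data of this design 35.3% of genes changed by 1.5-fold were called, and the differences here were mostly smaller than that, so a member without a call may still differ.

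**Figure D1:**
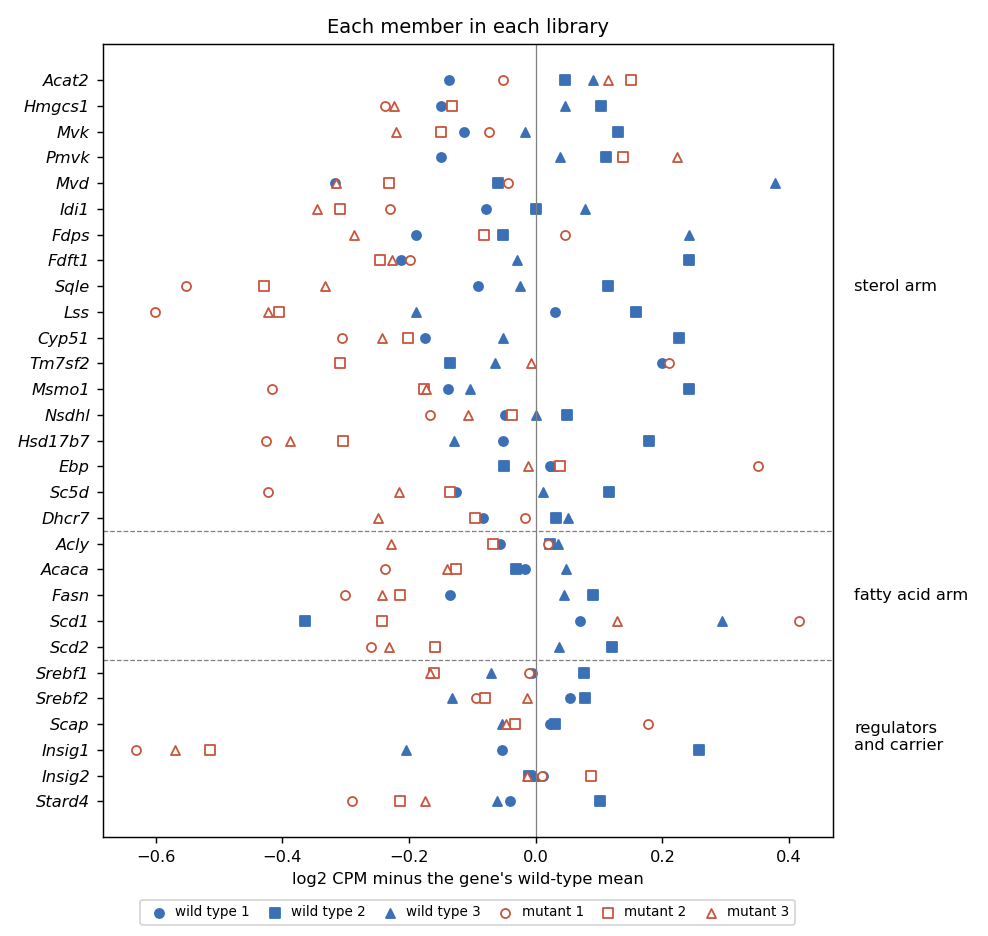
Each row is a member and each point a library, placed at its log2 CPM minus the gene's wild-type mean; filled points are wild type, open points mutant, and the shape gives the replicate number. The open points of Insig1, Sqle, Lss and Hsd17b7 all lie left of the filled ones, while those of Acat2, Ebp, Scd1, Scap and Insig2 mix with them.

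Among the regulators, the largest difference was in Insig1, which encodes an endoplasmic reticulum protein that retains SCAP and so closes the sterol feedback. The gene lies on chromosome 5 from 28071363 to 28078662 on the plus strand (mm10). Insig1 measured 29.6, 36.7 and 26.6 CPM in wild-type replicates 1, 2 and 3 and 19.8, 21.5 and 20.7 CPM in mutant replicates 1, 2 and 3. The mutant libraries were close together and all below the lowest wild-type library, and wild-type replicate 2 was the highest. That puts the mutant at 66.7% of wild type (approximate 95% interval 56.9% to 78.1%; log2 fold change -0.59, SE 0.12, adjusted p = 0.0926 in edgeR). Its unadjusted p was under 0.05 in 16 of 16 alternative settings, and its adjusted p ranged from 0.000312 with no filter on low counts to 0.329.

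The other regulators showed no such gap. Insig2, the second INSIG gene, measured 18.1, 17.8 and 17.9 CPM in the wild-type libraries and 18.0, 19.0 and 17.8 CPM in the mutant, with an approximate 95% interval of the mutant level from 90.1% to 115% of wild type. Srebf2, the gene of SREBP-2, measured 109, 111 and 95.6 CPM in the wild-type libraries against 98.2, 99.2 and 103.9 CPM in the mutant. Its interval ran from 87.0% to 105% of wild type, and the genotypes overlapped. Srebf1, which encodes SREBP-1a and SREBP-1c, measured 37.8, 40.1 and 36.2 CPM in the wild-type libraries against 37.7, 34.0 and 33.8 CPM in the mutant, and these overlapped too. The table counts whole genes, so its SREBP-1a and SREBP-1c transcripts are summed, and 109 of its exon bases are shared with Rai1 on the opposite strand, which unstranded counts cannot assign. Scap, the escort of SREBP, measured 46.8 ± 1.47 CPM in the wild-type libraries against 47.9 ± 4.26 CPM in the mutant (SD, n = 3). Adjusted p for these 4 genes ran from 0.662 for Srebf1 to 0.949 for Insig2 in edgeR.

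Stard4 encodes a carrier that moves cholesterol between membranes and is another known SREBP target. It measured 63.1, 69.6 and 62.2 CPM in the wild-type libraries and 53.0, 55.9 and 57.4 CPM in the mutant. The genotypes did not overlap, with a log2 fold change of -0.23 (SE 0.068, unadjusted p = 0.00682, adjusted p = 0.273 in edgeR).

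In the sterol arm, 15 of 18 genes had a lower mean in the mutant, where 49.4% of all tested genes did, and the median log2 fold change was -0.21, against 0.0019 over all tested genes. An unadjusted p under 0.05 was found for 7 of the 18, all lower in the mutant, against 4.80% of all genes. This count was 9 without wild-type replicate 1, 2 without wild-type replicate 2, 4 without wild-type replicate 3, mutant replicate 1 or mutant replicate 2, and 3 without mutant replicate 3, while the share of all genes lower at that level ran from 3.31% to 5.53%. Over all 29 members the count of 12 went to 14 without wild-type replicate 1, to 6 without wild-type replicate 2 and to 7 with mutant replicate 1 and wild-type replicate 3 both left out. The median of the sterol arm was -0.13 without wild-type replicate 2 and -0.30 without wild-type replicate 1.

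The squalene steps held the largest differences of the arm. Sqle, on chromosome 15 from 59315077 to 59331192 on the plus strand, encodes squalene epoxidase, a rate-limiting step of the late pathway. Sqle measured 31.7, 36.5 and 33.1 CPM in wild-type replicates 1, 2 and 3 and 23.0, 25.0 and 26.8 CPM in mutant replicates 1, 2 and 3. The genotypes did not overlap, and the gap between them was wider than the spread within either. That puts the mutant at 73.8% of wild type (approximate 95% interval 65.2% to 83.5%; log2 fold change -0.44, SE 0.091, adjusted p = 0.109 in edgeR).

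Lss, on chromosome 10 from 76531588 to 76557138 on the plus strand, encodes lanosterol synthase, which closes the rings of the sterol. Lss measured 19.7, 21.5 and 16.9 CPM in the wild-type libraries against 12.7, 14.5 and 14.4 CPM in the mutant. The highest mutant library lay below the lowest wild-type library. That puts the mutant at 71.5% of wild type (approximate 95% interval 60.9% to 84.0%; log2 fold change -0.48, SE 0.12, adjusted p = 0.178 in edgeR). By DESeq2 the adjusted p was 0.0103 for Lss, 0.00229 for Sqle and 0.000407 for Insig1, and with no filter on low counts edgeR gave 0.0246, 0.00478 and 0.000312. The unadjusted p of Sqle and of Lss was under 0.05 in 16 of 16 alternative settings, and the highest adjusted p among them was 0.442 for Sqle and 0.565 for Lss. Fdft1, which encodes squalene synthase and opens this stretch, measured 13.1, 18.0 and 14.9 CPM in the wild-type libraries against 13.2, 12.8 and 13.0 CPM in the mutant. Its wild-type replicate 1 lay among the mutant values (adjusted p = 0.570 in edgeR), and 774 of its exon bases are shared with Ctsb on the opposite strand.

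Among the mevalonate genes the differences were smaller and went both ways. Idi1, the isopentenyl diphosphate isomerase, measured 9.57, 10.1 and 10.7 CPM in the wild-type libraries against 8.61, 8.15 and 7.95 CPM in the mutant, with no overlap. Its log2 fold change was -0.30 (SE 0.12, unadjusted p = 0.0352, adjusted p = 0.436 in edgeR). Hmgcs1, the cytosolic HMG-CoA synthase, measured 26.7, 31.8 and 30.5 CPM in the wild-type libraries against 25.1, 27.0 and 25.3 CPM in the mutant, and mutant replicate 2 lay just above wild-type replicate 1 (log2 fold change -0.20, SE 0.091, adjusted p = 0.470 in edgeR).

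Mvk, the mevalonate kinase, averaged 4.14 ± 0.358 CPM in the wild-type libraries against 3.73 ± 0.190 CPM in the mutant (SD, n = 3). Mvd, the mevalonate diphosphate decarboxylase, averaged 4.05 ± 1.02 and 3.47 ± 0.344 CPM, and Fdps, the farnesyl diphosphate synthase, 18.0 ± 2.81 and 16.7 ± 1.92 CPM. In these 3 genes the genotypes overlapped, and adjusted p ran from 0.762 to 0.826 in edgeR. Mvd was the least covered member, with 143 expected counts in mutant replicate 3.

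Pmvk and Acat2 had a higher mean in the mutant. Pmvk, the phosphomevalonate kinase, measured 8.24, 9.87 and 9.38 CPM in the wild-type libraries against 10.0, 10.1 and 10.7 CPM in the mutant, a small gap with no overlap (log2 fold change 0.16, SE 0.13, adjusted p = 0.698 in edgeR). Acat2, the thiolase that makes acetoacetyl-CoA, averaged 20.9 ± 1.72 and 22.0 ± 1.61 CPM (SD, n = 3), with overlap. Acat3 is a close paralog of Acat2, so the Acat2 value depends on how shared reads were split.

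Of the steps after lanosterol, Hsd17b7 had the largest difference. It encodes the ketoreductase of the demethylation cycle at the sterol ring and lies on chromosome 1 from 169949535 to 169969241 on the minus strand. Hsd17b7 measured 13.8, 16.2 and 13.1 CPM in the wild-type libraries against 10.6, 11.6 and 10.9 CPM in the mutant. Mutant values were all below wild type, at 76.9% (approximate 95% interval 65.3% to 90.6%; log2 fold change -0.38, SE 0.12, adjusted p = 0.299 in edgeR).

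Cyp51, the lanosterol demethylase, measured 27.2, 36.0 and 29.7 CPM in the wild-type libraries against 24.9, 26.7 and 26.0 CPM in the mutant. Its mutant values lay just below the lowest wild-type library, and wild-type replicate 2 stood apart above the other wild-type libraries. Cyp51 had a log2 fold change of -0.26 (SE 0.11, unadjusted p = 0.0332, adjusted p = 0.433 in edgeR), and 166 of its exon bases are shared with Akap9 on the opposite strand. Msmo1, the methylsterol oxidase, measured 17.9, 23.4 and 18.4 CPM in the wild-type libraries against 14.8, 17.5 and 17.5 CPM in the mutant, with no overlap and again a high wild-type replicate 2 (adjusted p = 0.506 in edgeR). Sc5d, the sterol desaturase, measured 18.6, 22.0 and 20.4 CPM in the wild-type libraries against 15.1, 18.5 and 17.4 CPM in the mutant, where the closest pair of libraries nearly met (unadjusted p = 0.0420, adjusted p = 0.452 in edgeR).

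Nsdhl, the decarboxylating sterol dehydrogenase, averaged 17.2 ± 0.580 CPM in the wild-type libraries against 16.0 ± 0.727 CPM in the mutant (SD, n = 3). Dhcr7, which reduces the last precursor to cholesterol, averaged 21.6 ± 1.07 and 19.9 ± 1.61 CPM. Ebp, the sterol isomerase, averaged 13.5 ± 0.406 and 14.8 ± 2.10 CPM, where mutant replicate 1 alone was high, at 17.2 CPM. Tm7sf2, a sterol reductase, averaged 4.59 ± 0.580 and 4.51 ± 0.807 CPM, and it shares 532 exon bases with Vps51 on the same strand. Adjusted p of these 4 genes ran from 0.726 to 0.980 in edgeR.

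**Figure D2:**
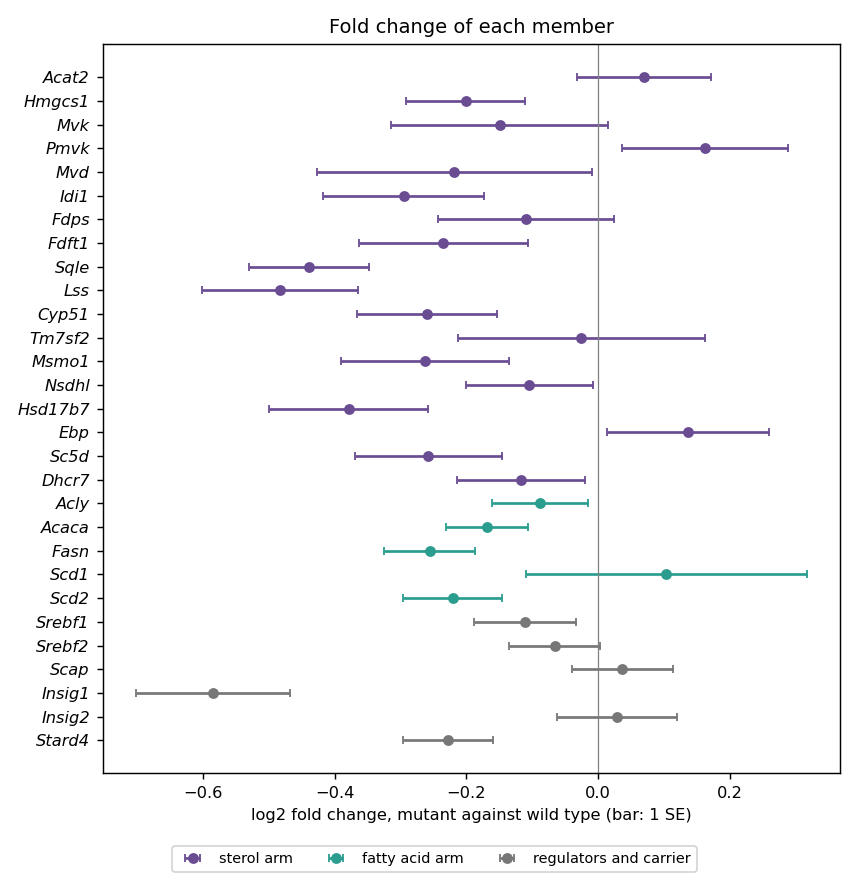
Points give each member's log2 fold change of mutant against wild type and bars 1 SE of the edgeR fit, in pathway order and coloured by arm. Insig1 (-0.59), Lss (-0.48), Sqle (-0.44) and Hsd17b7 (-0.38) lie farthest to the left, and the points right of 0 are Pmvk, Ebp, Scd1, Acat2, Scap and Insig2.

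In the fatty acid arm, Fasn, Scd2 and Acaca were the genes with lower values in every mutant library. Fasn encodes fatty acid synthase and lies on chromosome 11 from 120805846 to 120824547 on the minus strand. Fasn measured 117, 137 and 132 CPM in wild-type replicates 1, 2 and 3 and 104, 111 and 108 CPM in mutant replicates 1, 2 and 3. That puts the mutant at 83.7% of wild type (approximate 95% interval 76.2% to 92.0%; log2 fold change -0.26, SE 0.069, adjusted p = 0.220 in edgeR). Its unadjusted p was under 0.05 in 16 of 16 alternative settings, with adjusted p between 0.0508 and 0.607.

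Acaca, the acetyl-CoA carboxylase, measured 71.2, 70.5 and 74.5 CPM in the wild-type libraries against 61.1, 66.0 and 65.3 CPM in the mutant (log2 fold change -0.17, SE 0.062, adjusted p = 0.381 in edgeR). Scd2, a stearoyl-CoA desaturase, measured 288, 349 and 329 CPM in the wild-type libraries against 268, 287 and 273 CPM in the mutant, where the highest mutant library almost equalled the lowest wild-type library (log2 fold change -0.22, SE 0.075, adjusted p = 0.336 in edgeR). The desaturase family is uneven in these cells. Its member Scd1, the main desaturase of liver and fat, measured 6.18, 4.57 and 7.22 CPM in the wild-type libraries against 7.87, 4.97 and 6.44 CPM in the mutant, with full overlap. Scd1 and Scd2 are close relatives, so reads common to them were divided by the authors' estimation.

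Acly, the ATP citrate lyase that supplies acetyl-CoA to both arms, measured 78.2, 82.5 and 83.3 CPM in the wild-type libraries against 82.4, 77.6 and 69.4 CPM in the mutant. Its genotypes overlapped (log2 fold change -0.088, SE 0.073, adjusted p = 0.720 in edgeR). Over the arm, 4 of 5 genes had a lower mean in the mutant, against 49.4% of all genes, 3 of 5 had an unadjusted p under 0.05 as lower, against 4.80%, and the median log2 fold change was -0.17.

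Set beside each other with every library included, the arms had nearly the same median difference. The sterol median was lower than the fatty acid median by 0.041 on the log2 scale, a difference that was not tested because the arms are chosen lists. Without wild-type replicate 1 the sterol median minus the fatty acid median was -0.12, the largest such difference with a single library left out. The difference was 0.024 in the other direction without wild-type replicate 2 and 0.0077 in the other direction without mutant replicate 3. Averaged over its genes as log2 CPM relative to the wild-type mean, the sterol arm stood at -0.10, 0.081 and 0.020 in wild-type replicates 1, 2 and 3 and at -0.17, -0.16 and -0.19 in mutant replicates 1, 2 and 3. The fatty acid arm stood at -0.059, -0.032 and 0.092 in wild type and at -0.073, -0.16 and -0.14 in the mutant. In both arms the mutant libraries were the lower ones. The mutant mean minus the wild-type mean was -0.17 for the sterol arm and -0.13 for the fatty acid arm. In both arms the wild-type libraries were spread over a range about as wide as that difference of means. The nearest libraries of the 2 genotypes were much closer, above all in the fatty acid arm. The sterol mean minus the fatty acid mean was -0.041, 0.11 and -0.072 in wild type and -0.094, -0.00020 and -0.048 in the mutant, and these overlapped. Log2 fold changes of the larger sterol arm ran from -0.48 (Lss) to 0.16 (Pmvk) and those of the fatty acid arm from -0.26 (Fasn) to 0.10 (Scd1).

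**Figure D3:**
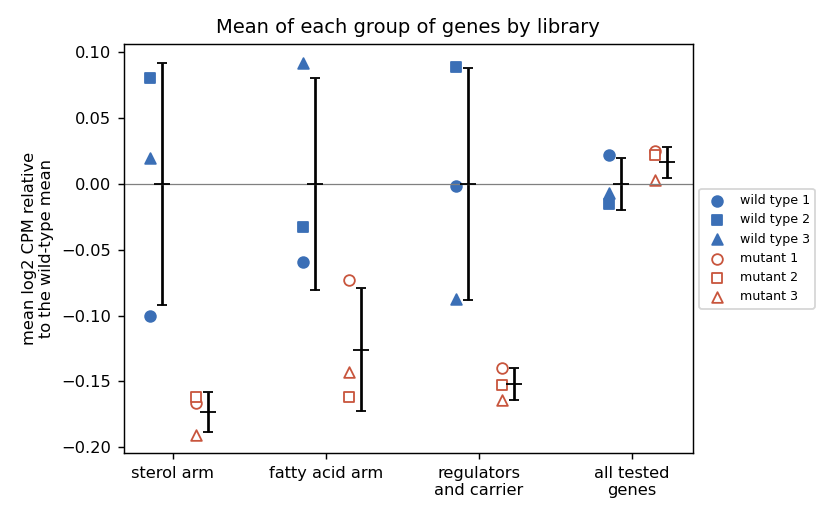
Each point is a library's mean over a group of genes of log2 CPM relative to the gene's wild-type mean, with black bars for the mean and SD of 3 libraries. Mutant sterol means lie between -0.19 and -0.16, below wild-type replicate 1 at -0.10, and the means over all tested genes stay within 0.025 of 0.

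Wild-type replicate 2 stood at the high end of the members. It was the highest of the 6 libraries in 16 of 29 members, where it was highest in 14.2% of all tested genes. Mutant replicate 1 was the lowest in 13 of 29 members, where it was lowest in 22.3% of all tested genes. That library is also the deepest, and its part in the result was not tested beyond leaving it out, which gave medians of -0.19 for the sterol arm and -0.14 for the fatty acid arm.

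**Figure D4:**
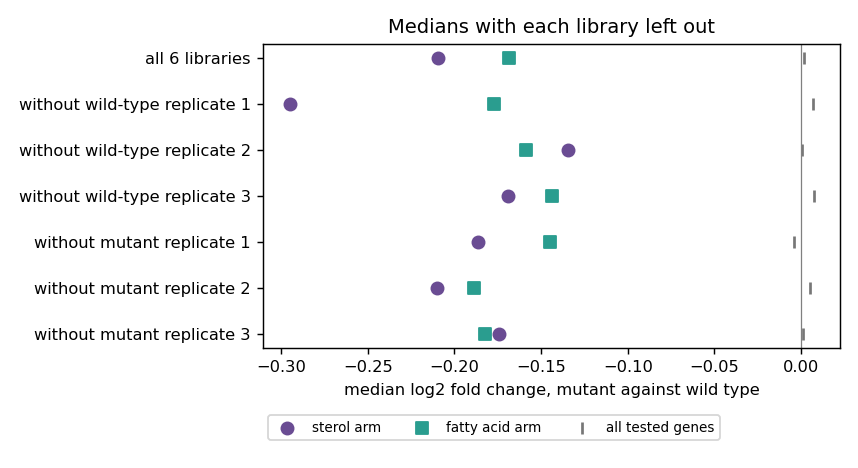
Circles give the median log2 fold change of the 18 sterol genes, squares that of the 5 fatty acid genes and ticks that of all tested genes, for all 6 libraries and with each library left out. The sterol median moves from -0.30 without wild-type replicate 1 to -0.13 without wild-type replicate 2, and both arms stay below 0 throughout.

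Some markers of other cells also differed by genotype. The 9 B cell markers summed to 110 to 141 CPM in the wild-type libraries against 151 to 344 CPM in the mutant, the highest in mutant replicate 1, and 8 of the 9 had an unadjusted p under 0.05 as higher in edgeR, against 5.83% of all genes, with 0 of 9 past the adjusted threshold. The 6 mast cell, basophil and eosinophil markers summed to 42.9 to 45.1 CPM in the wild-type libraries against 54.9 to 74.0 CPM in the mutant, and 5 of the 6 were higher at that level. Of these, Fcer1a, a chain of the IgE receptor, rose from 0.499 ± 0.0776 to 2.49 ± 0.380 CPM (SD, n = 3; log2 fold change 2.31, adjusted p = 0.00522 in edgeR). The 9 macrophage and dendritic cell markers summed to 72.4 to 86.1 and 83.0 to 119 CPM, with overlap, where 7 of the 9 had an unadjusted p under 0.05 as higher and 1, Siglech, as lower, and 0 passed after adjustment. None of these lists had a member at 0, and their part in the lower sterol and fatty acid values was not tested. Of the 4 adipocyte markers Adipoq, Plin1 and Cfd were under 0.5 CPM in every library. The other, Fabp4, measured 0.881, 0.389 and 0.493 CPM in wild-type replicates 1, 2 and 3. In mutant replicates 1, 2 and 3 it measured 1.91, 1.11 and 0.357 CPM, with overlap (log2 fold change 0.95, adjusted p = 0.584 in edgeR). The 12 cell cycle markers summed to 3311 to 3996 CPM in the wild-type libraries against 3552 to 3989 CPM in the mutant, with 0 of 12 past an unadjusted p under 0.05. Summed levels of the LSK, neutrophil, erythroid, megakaryocyte, T and natural killer, stromal and adipocyte lists overlapped between the genotypes, yet 3 of their genes passed the adjusted threshold in edgeR, all higher in every mutant library. These were the adult beta-globin genes Hbb-bt (18.1 ± 2.75 against 78.6 ± 22.7 CPM, adjusted p = 0.00213) and Hbb-bs (29.5 ± 4.65 against 70.4 ± 21.5 CPM, adjusted p = 0.0312), near-identical copies between which reads may be split, and the natural killer receptor gene Klrb1c (1.46 ± 0.423 against 5.18 ± 1.09 CPM, adjusted p = 0.0177; SD, n = 3). They and Fcer1a were chosen for naming after their values were seen, and their part in the lower sterol and fatty acid values was likewise not tested. In such bulk libraries fewer cells of a type and less RNA per cell cannot be told apart.

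Levels can be compared between genes per length only. As mean CPM per kilobase of the principal transcript, Scd2 was by far the highest member at 54.8, ahead of Srebf2 at 20.2 and Acly at 18.0, while Scd1 was the lowest at 1.28. The highest sterol enzyme was Fdps at 12.5, followed by Sqle at 10.6, and the lowest were Mvk at 2.37 and Mvd at 2.14. Insig1 stood at 9.57 and Insig2 at 6.71. These values rest on annotated lengths and not on the isoforms that these cells use.

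**Figure D5:**
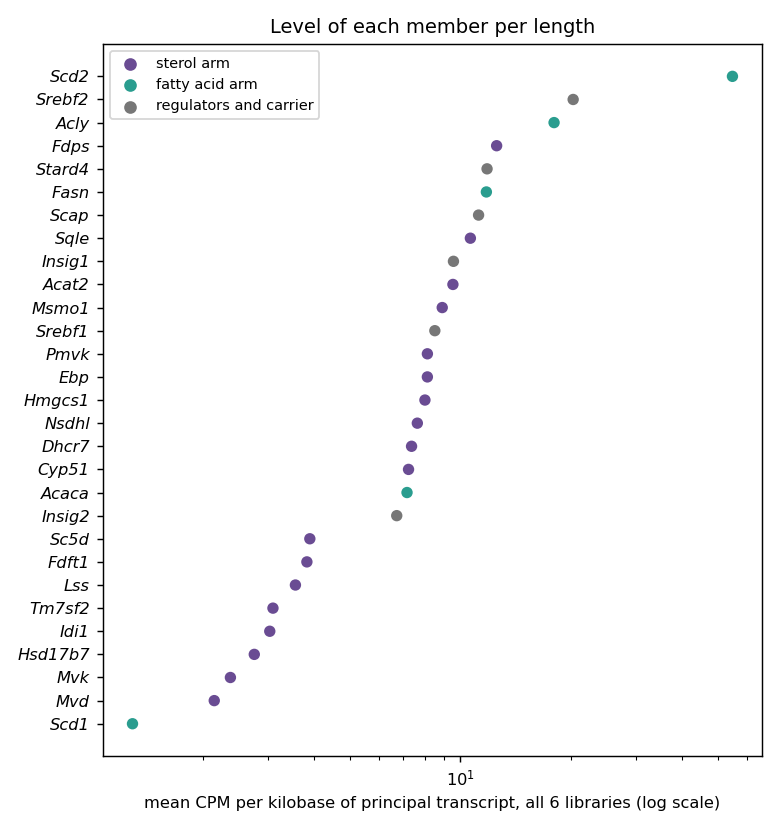
Points give each member's level as mean CPM per kilobase of its principal transcript over all 6 libraries, on a log axis, coloured by arm. Scd2 lies alone at the top at 54.8 and Scd1 at the bottom at 1.28.

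Lists of neighbouring branches of lipid metabolism had medians closer to 0. In 4 related lists of 49 genes, 48 were tested, 0 passed in edgeR, DESeq2 or limma-voom, and 3 had an unadjusted p under 0.05, all lower, against the 4.80% of all genes lower at that level. The isoprenoid branches, which lead from the mevalonate products to dolichol, ubiquinone and prenylated proteins, had a median log2 fold change of 0.011 over 10 genes, with 0 of 10 at an unadjusted p under 0.05. Pggt1b, which had the highest CPM of the list without regard to length, encodes the catalytic subunit of a geranylgeranyl transferase and averaged 83.8 ± 2.41 CPM in the wild-type libraries against 78.0 ± 4.71 CPM in the mutant (SD, n = 3). Acat1, the mitochondrial thiolase, averaged 57.2 ± 0.990 and 58.6 ± 5.96 CPM, and Nus1, of dolichol synthesis, 58.2 ± 2.85 and 56.5 ± 1.28 CPM.

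Genes of sterol transport, esterification and the LXR receptors had a median of 0.0018 over 11 genes. Npc2, which hands cholesterol out of lysosomes, averaged 97.4 ± 5.84 CPM in the wild-type libraries against 107 ± 7.33 CPM in the mutant, the exporter gene Abcg1 73.5 ± 5.19 and 79.9 ± 4.75 CPM, and the oxysterol-binding protein gene Osbp 65.5 ± 3.54 and 61.8 ± 3.51 CPM (SD, n = 3). The list of SREBP processing and INSIG turnover had a median of -0.021 over 6 genes. Its protease gene Mbtps1, which makes the first cut in SREBP, averaged 67.6 ± 0.918 and 62.0 ± 2.66 CPM. Mbtps1 was lower in every mutant library (adjusted p = 0.503 in edgeR), as was 1 of the 6 genes of this list and 7.84% of all tested genes. The ubiquitin ligase gene Rnf145 averaged 61.7 ± 2.35 and 65.0 ± 3.70 CPM.

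The list of fatty acid activation, elongation, desaturation and use had a median of -0.084, with 18 of its 21 tested genes below 0. That is 85.7%, against 79.3% of the 29 members and 49.4% of all tested genes, so a lean below 0 was not particular to the members. Tecr, of the elongation cycle, averaged 138 ± 3.00 CPM in the wild-type libraries against 143 ± 11.1 CPM in the mutant, the acyl-CoA synthetase gene Acsl5 133 ± 12.1 and 125 ± 9.08 CPM, and the elongase gene Elovl5 123 ± 3.22 and 117 ± 4.73 CPM (SD, n = 3). The 3 related genes at an unadjusted p under 0.05, named after their values were seen, were the lipoprotein receptor gene Scarb1 (log2 fold change -0.24, adjusted p = 0.327), the acyl-CoA synthetase gene Acsl3 (-0.23, adjusted p = 0.321) and the acetyl-CoA synthetase gene Acss2 (-0.30, adjusted p = 0.451), all in edgeR.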

How the data were processed

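Per the submitters' processing notes, reads were processed with Trim Galore 0.60, STAR 2.7 and RSEM 1.31 on mm10. The deposited expected counts per gene, made by the authors, are not scaled for library size, are marked as unstranded by their heading, and divide multi-mapping reads among genes. The annotation release is not given in the sources used here. The 92 spike-in rows, all at 0, were left out. Expected counts were rounded, filtered with filterByExpr (20646 genes kept), scaled by TMM and compared with edgeR 4.0.16 in R 4.3.3 (quasi-likelihood, two-sided, no covariates, Benjamini-Hochberg over all tested genes, threshold 0.05). Intervals use the fold change and its SE with a normal approximation. Log2 CPM values use a prior count of 2. Positions and lengths are from GENCODE M21. Some members not marked above share exon bases with genes of lower counts. Among them are Fdps (1124 with Gm43738, same strand), Scap (985 with 5830462I19Rik), Hmgcs1 (557 with Gm48342) and Lss (381 with 4930483K19Rik). Mean expected counts of these 4 partner genes ran from 0 to 148.

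The alternatives were DESeq2 1.42.0, limma-voom (limma 3.58.1), other scalings and filters, unrounded counts, the replicate number as a block, and left-out libraries or genes. All of them refit the same 6 libraries or part of them, so a count of settings is not independent support. Beyond the genes given above, an unadjusted p under 0.05 was found in 16 of 16 settings for Stard4, in 3 for Msmo1 and in 1 for Fdft1. Libraries of a genotype differed by more than counting error (chi-square per gene 11.2 to 46.5), which does not show whether they are separate animals. Each was counted as a sample of its own. The script was tested on simulated data of this comparison with 3 draws, 200 changed genes each and at least 20266 genes tested, where 58.3% of 2-fold changes were called and 9.1% of calls were false. Members and lists were chosen with earlier results of these data known. All members are named, and of each related list the 3 genes with the highest mean CPM. Some genes of the pathway, including 1 that this rule would name, are not reported here.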

Additional observations from a re-analysis of the deposited data

How the results depend on the processing

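The count of genes past the threshold was 55, and it was 329 with DESeq2, 527 with no filter on low counts and 16 to 67 with a single library left out. Members past the threshold numbered 0, and 3 with DESeq2 and with no filter (Insig1, Sqle and Lss each time), while limma-voom and the other settings run gave 0. Same-numbered libraries did not deviate together over all tested genes (correlations of -0.020, -0.025 and -0.085). Such a check cannot exclude a pairing that leaves no shared deviation across genes, and the libraries were compared as unpaired. With the replicate block 32 genes and 0 members passed, with arm medians of -0.20 and -0.17. The sterol median ran from -0.30 to -0.13 with a single library left out, and the fatty acid median from -0.19 to -0.14. Both were below 0 in each of the 16 alternatives. Scaling by library size alone moved the median of all genes by -0.036. Signs turned for 5 members near 0. Without scaling factors Insig2 was at -0.0062 and Scap at -0.0018. With a single library left out, Scap ran from -0.040 to 0.077, Scd1 from -0.072 to 0.26, Tm7sf2 from -0.16 to 0.10, Fdps from -0.20 to 0.021 and Insig2 from -0.00082 to 0.049, and Scap was at -0.065 with mutant replicate 1 and wild-type replicate 3 both left out. The cause of these changes was not tested. With 3 libraries a genotype, most differences seen here were smaller than the 1.5-fold of the simulation. Its changed genes were drawn from all tested genes, so the share of such differences that the test can call among the members was not measured.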
